A study of Arabidopsis thaliana with 12 samples.

Results

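Calmodulin-like proteins are small relatives of calmodulin that carry EF-hand motifs, the loops that bind calcium ions. In leaves, touch, wounding and the recognition of microbes each open calcium channels, and such proteins pass the rise in cellular calcium on to their targets. The touch genes TCH2 and TCH3 were first found because their transcripts accumulate within minutes after a plant is handled. The 8 genes described here were chosen by identifier from the 32678 genes of the count table. They are CML10 (AT2G41090), TCH3 (AT2G41100, also CML12), TCH2 (AT5G37770, also CML24), CML37 (AT5G42380), CML38 (AT1G76650), CML42 (AT4G20780), CML43 (AT5G44460) and CML46 (AT5G39670). All 8 were in the table, and 7 passed the filter on low counts. CML43 did not and was not tested.

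Leaves of 4-week-old Arabidopsis plants had been infiltrated with Pst AvrRps4, Pseudomonas syringae bacteria that deliver the effector AvrRps4, at an OD600 of 0.005, and were taken 4 h later. There were 3 libraries of each of 4 genotypes, each from RNA pooled over 4 plants. R493A plants carry EDS1, the immune regulator that acts downstream of TIR-type receptors, with arginine exchanged for alanine. The mutant eds1-2 lacks EDS1 function, w.tEDS1 carries wild-type EDS1, and Col-0 is the wild-type accession. All 4 groups received the bacteria, so no value below measures the response to infection. The labels do not state the genetic background of R493A and w.tEDS1, the promoter that drives EDS1 in them, or how many independent lines each stands for. Because leaves are mixtures of cell types, fewer cells of a type and less RNA per cell cannot be told apart.

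Counts of all genes summed to between 19273912 and 24572145 per library. EDS1 averaged 24.7 ± 5.96 CPM (counts scaled to library size) in R493A, 3.94 ± 0.141 in eds1-2, 144 ± 45.9 in w.tEDS1 and 42.5 ± 25.9 in Col-0 (SD, n = 3 each), which goes with the labels. Thus w.tEDS1 held more EDS1 transcript than Col-0 (log2 fold change 1.76, SE 0.37, edgeR adjusted p = 0.0498), and R493A held less than w.tEDS1 (−2.54, SE 0.38, adjusted p = 0.0256). R493A over eds1-2 was 2.65 (SE 0.40, edgeR adjusted p = 0.0570) and R493A over Col-0 was −0.78 (SE 0.36, adjusted p = 0.265). Neither passed at 0.05. Without the Col-0 libraries of lane 6, described next, w.tEDS1 over Col-0 was 2.64 (adjusted p = 0.0309) and R493A over Col-0 was 0.10, against −0.78 with all libraries. The amount of EDS1 transcript and the exchange in EDS1 cannot be told apart in R493A against w.tEDS1. The leaf genes RBCS1A, LHCB2.1 and RCA were abundant in every library, with a sum of 15914 to 18147 CPM in R493A, 17859 to 21366 in eds1-2, 17535 to 20210 in w.tEDS1 and 12169 to 17213 in Col-0. Of 4 root markers, PYK10 averaged 2.08 to 4.45 CPM over the groups and EXPA7 had no count in any library. Of the 12 libraries, 10 shared a sequencing run, called the larger run here, and the smaller run held R493A replicate 2 and eds1-2 replicate 1. Within the larger run Col-0 replicates 1 and 2 had lane 6 to themselves. These Col-0 libraries lay farthest from the others on the first principal component of all genes, at 62.9 and 92.6, against 0.307 for Col-0 replicate 3 and −48.5 to 1.68 for the other genotypes. The main values against Col-0 are therefore also given without them. Every value against Col-0 without lane 6, above and below, rests on Col-0 replicate 3 alone.

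The sequences upstream of the genes are shown for CML10 and CML46, the members called with all libraries, and for TCH2, which was not called. Each window runs 5′ to 3′ on the gene's own strand from 250 bases before to 50 bases after the annotated gene start (RefSeq, TAIR10.1). Capitals mark TTGAC, the core of the W-box that WRKY factors bind, and CGCGT, the core of the CGCG box that calmodulin-binding CAMTA factors bind, on either strand. The windows are chr2:17135097-17135396 on the plus strand for CML10, chr5:15882929-15883228 on the plus strand for CML46 and chr5:14999570-14999869 on the minus strand for TCH2.
CML10: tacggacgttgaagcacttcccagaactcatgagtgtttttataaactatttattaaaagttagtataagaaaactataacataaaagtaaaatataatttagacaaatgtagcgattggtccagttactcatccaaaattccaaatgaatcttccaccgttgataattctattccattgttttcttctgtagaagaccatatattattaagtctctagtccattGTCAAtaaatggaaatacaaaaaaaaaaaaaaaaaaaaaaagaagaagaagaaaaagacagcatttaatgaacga
CML46: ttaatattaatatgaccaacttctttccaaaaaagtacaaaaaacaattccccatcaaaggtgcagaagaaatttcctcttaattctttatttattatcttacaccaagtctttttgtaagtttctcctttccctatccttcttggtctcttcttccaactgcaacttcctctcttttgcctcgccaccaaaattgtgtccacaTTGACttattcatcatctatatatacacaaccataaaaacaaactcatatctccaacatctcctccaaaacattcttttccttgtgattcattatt
TCH2: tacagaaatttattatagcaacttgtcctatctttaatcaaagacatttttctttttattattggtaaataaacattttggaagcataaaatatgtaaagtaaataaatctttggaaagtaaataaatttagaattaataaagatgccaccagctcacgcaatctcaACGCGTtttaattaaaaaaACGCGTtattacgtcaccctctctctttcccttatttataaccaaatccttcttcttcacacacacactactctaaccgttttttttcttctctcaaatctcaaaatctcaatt
Both CML10 and CML46 held 1 TTGAC, starting 25 and 46 bases before the gene start, and in CML46 it was part of the longer TTGACT. Over the windows of 26711 protein-coding genes, 50.5% held TTGAC and 32.4% held TTGACC or TTGACT, so a match is common. TCH2 held ACGCGT at 83 and at 64 bases before its start. That palindrome contains CGCGT on both strands, and 2.13% of all windows held it. Of the other members, CML38, CML42 and CML43 held TTGAC, and the windows of TCH3 and CML37 held neither core. TCH3, like CML10 and CML46, lay lower in every R493A and eds1-2 library than in every w.tEDS1 and Col-0 library. None of the TCH3 differences passed in edgeR with all libraries, and the share of all genes with this pattern was not counted. The part of these motifs in the levels was not tested. The window of TCH3 lies mostly in the last exon of CML10, because only 37 bases separate the 2 annotated genes.

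With all libraries, CML10 transcript lay 3.01- to 3.85-fold lower in R493A and eds1-2 than in w.tEDS1 and Col-0. The gap to Col-0 narrowed without its lane 6 libraries, as given below. CML10 (chromosome 2, 17135347 to 17136999, plus strand, 3 exons) encodes a calcium sensor that binds phosphomannomutase, an enzyme of vitamin C synthesis. It measured 60.4, 61.8 and 54.5 CPM in R493A replicates 1, 2 and 3, and 53.5, 55.9 and 64.2 CPM in eds1-2. In w.tEDS1 it measured 152, 258.3 and 258.4 CPM, and in Col-0 189, 220 and 123 CPM. The 6 libraries of R493A and eds1-2 formed a narrow band, and each lay below every library of w.tEDS1 and Col-0. CML10 was one of the genes already known from an earlier look at these data to differ between eds1-2 and w.tEDS1, where the log2 fold change was −1.95 (SE 0.24). That difference is given as a description without a test. R493A against Col-0 shares no library with it, but the members were chosen with earlier results known, so it is not independent evidence either. Its test also drew on the spread of all 12 libraries. In R493A against Col-0 CML10 was 3.01-fold lower (log2 fold change −1.59, SE 0.24, edgeR adjusted p = 0.00739). The next 2 comparisons each share 3 libraries with the one CML10 was known from, so they are not separate evidence. CML10 fell in R493A relative to w.tEDS1 (−1.92, SE 0.24, adjusted p = 0.0107) and in eds1-2 relative to Col-0 (−1.62, SE 0.24, adjusted p = 0.00780). Between R493A and eds1-2 it differed by 0.03 on the log2 scale, with a 95% interval of −0.48 to 0.53. Between w.tEDS1 and Col-0 it differed by 0.33 (interval −0.17 to 0.83, adjusted p = 0.405), and by 0.87 without the lane 6 libraries of Col-0 (adjusted p = 0.356).

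The direction of the CML10 difference held better than its calls, and its size held against w.tEDS1 but less so against Col-0. Over 23 other settings the log2 fold change lay between −2.13 and −1.80 for R493A over w.tEDS1, between −1.79 and −1.03 for R493A over Col-0, and between −1.81 and −1.05 for eds1-2 over Col-0. The call against w.tEDS1 in R493A was lost without any 1 of the R493A libraries (adjusted p up to 0.110) and in the larger run alone (−1.95, adjusted p = 0.112). Without the lane 6 libraries, which leaves only replicate 3 of Col-0, the values against Col-0 stood at −1.05 in R493A and −1.07 in eds1-2, and those calls were lost. They were also lost without R493A replicate 3 (adjusted p = 0.0537) and without eds1-2 replicate 1 or 2 (adjusted p up to 0.0568).

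CML46 had the widest spread on the log2 scale of the 7 tested genes, and like CML10 it lay lower in R493A and eds1-2 than in w.tEDS1 and Col-0. CML46 (chromosome 5, 15883179 to 15884067, plus strand, 1 exon) encodes an EF-hand protein that, with the calmodulin-binding protein CBP60a, restrains salicylic acid accumulation. It measured 7.75, 5.22 and 4.63 CPM in R493A and 6.67, 6.24 and 7.52 CPM in eds1-2. In w.tEDS1 it measured 25.7, 63.2 and 22.6 CPM, and in Col-0 29.99, 84.9 and 36.9 CPM. As with CML10, all R493A and eds1-2 libraries lay below all w.tEDS1 and Col-0 libraries, while replicate 2 of w.tEDS1 and of Col-0 stood above the other 2 of its group. CML46 was 8.59-fold lower in R493A than in Col-0 (log2 fold change −3.10, SE 0.48, adjusted p = 0.00877) and 7.42-fold lower in eds1-2 than in Col-0 (−2.89, SE 0.47, adjusted p = 0.0140). Against w.tEDS1 the differences were −2.66 in R493A (SE 0.47, adjusted p = 0.0527) and −2.45 in eds1-2 (SE 0.46, adjusted p = 0.159), and neither passed, although their 95% intervals of −3.69 to −1.63 and −3.47 to −1.43 lay below 0. R493A and eds1-2 differed by −0.21 (interval −1.23 to 0.81), and w.tEDS1 and Col-0 by −0.44 (interval −1.39 to 0.50). Between w.tEDS1 and Col-0 the value was 0.02 without the lane 6 libraries of Col-0, 0.01 in lane 7 alone and 0.01 with the lane in the model. In each of these settings Col-0 replicate 3 alone sets the level of Col-0, so they are not separate evidence.

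The calls of CML46 against Col-0 did not hold in every subset of the libraries. They were lost in the larger run alone, at −3.02 in R493A (adjusted p = 0.0985) and −2.87 in eds1-2 (adjusted p = 0.131). Without the lane 6 libraries of Col-0 they stood at −2.64 (adjusted p = 0.0743) and −2.42 (adjusted p = 0.147). Leaving out R493A replicate 2 or 3, or any 1 of the eds1-2 libraries, also ended a call (adjusted p up to 0.0686 and 0.0793). Against w.tEDS1, DESeq2 called CML46 in both R493A and eds1-2. A neighbouring gene on the other strand, EMB2744, overlaps CML46 by 67 bases and had 17 to 46 counts per library, against 90 to 1745 for CML46. Per the labels the libraries followed the TruSeq v2 guide, whose kit does not mark strand, so reads in the overlap cannot be told apart.

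**Figure D1:**
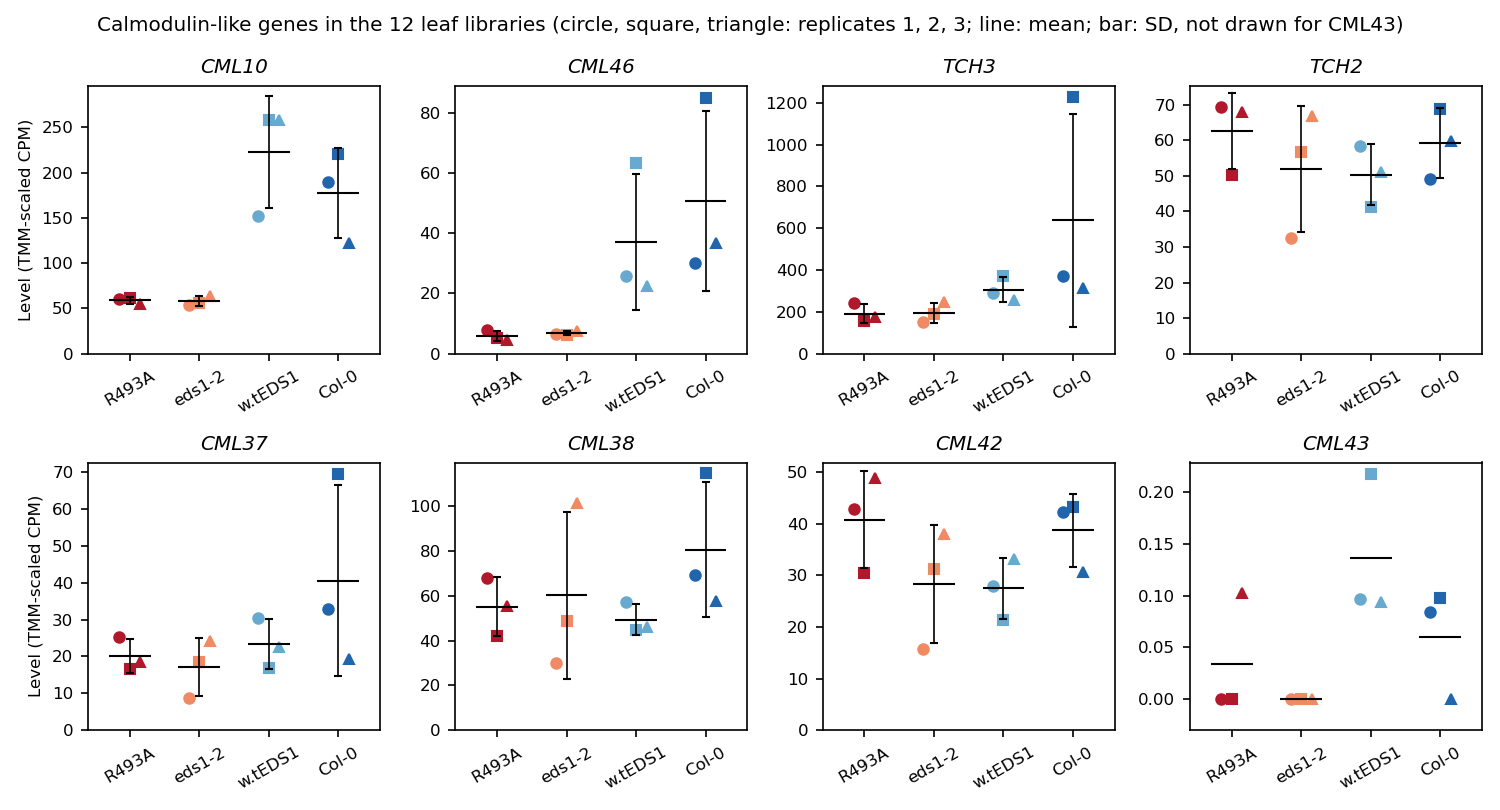
Level of each of the 8 genes in TMM-scaled CPM (vertical axes, a scale of its own in each panel) in the 3 libraries of R493A, eds1-2, w.tEDS1 and Col-0. CML10 and CML46 lie lower in all 6 R493A and eds1-2 libraries than in all 6 of w.tEDS1 and Col-0, TCH3 reaches 1225 CPM in Col-0 replicate 2, and CML43 stays below 0.22 CPM.

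TCH3 was the most abundant of the genes and lay lower in R493A and eds1-2, but none of its differences passed the test. TCH3 (chromosome 2, 17137037 to 17139700, plus strand) follows CML10 directly on the chromosome and encodes a protein with several pairs of EF-hands, which binds the auxin-transport kinase PINOID. It measured 242, 157 and 176 CPM in R493A and 150.0, 191 and 245 CPM in eds1-2. In w.tEDS1 it measured 288, 374 and 256 CPM, and in Col-0 372, 1225 and 316 CPM. Every R493A and eds1-2 library lay below every w.tEDS1 and Col-0 library, by a small margin against w.tEDS1, whereas w.tEDS1 and Col-0 overlapped. Against Col-0 the log2 fold change was −1.73 in R493A (SE 0.45, adjusted p = 0.0724) and −1.71 in eds1-2 (SE 0.45, adjusted p = 0.0688). Against w.tEDS1 it was −0.67 in R493A (95% interval −1.63 to 0.29) and −0.65 in eds1-2 (interval −1.60 to 0.31). Without Col-0 replicate 2 the values against Col-0 were −0.85 in R493A and −0.82 in eds1-2, and without both lane 6 libraries they were −0.71 and −0.68. DESeq2 called both, and so did edgeR without Col-0 replicate 3, at −2.06 (adjusted p = 0.0126) and −2.03 (adjusted p = 0.0126). Without that library TCH3 was also called lower in w.tEDS1 than in Col-0 (−1.38, adjusted p = 0.0488, against −1.06 and adjusted p = 0.185 with all libraries). That difference was −0.17 without Col-0 replicate 2 (adjusted p = 0.771) and −0.04 without both lane 6 libraries (adjusted p = 0.976). Reads that span the 37 bases between CML10 and TCH3 could be assigned to either gene or to none.

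The other touch gene, TCH2 (chromosome 5, 14997514 to 14999619, minus strand), whose protein regulates flowering and responses to ions, differed little between the genotypes. It measured 69.5, 50.2 and 67.9 CPM in R493A, 32.5, 56.8 and 66.9 in eds1-2, 58.6, 41.4 and 51.2 in w.tEDS1 and 49.2, 68.8 and 59.8 in Col-0. All groups overlapped. Its log2 fold changes over the 6 comparisons lay between −0.23 for w.tEDS1 over Col-0 and 0.31 for R493A over w.tEDS1. The widest 95% limits were −0.78 and 0.85, so changes of 2-fold in either direction lie outside all 6 intervals. Its partner on the other strand, AT5G37760, overlaps it by 723 bases but had at most 5 counts in a library.

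CML37, CML38 and CML42 are linked to wounding and insect feeding, and none of them passed the test in any comparison. CML37, a promoter of jasmonate defence against herbivores, measured 25.4, 16.7 and 18.4 CPM in R493A, 8.79, 18.4 and 24.3 in eds1-2, 30.4, 17.0 and 22.6 in w.tEDS1 and 32.9, 69.6 and 19.3 in Col-0. Its log2 fold change against Col-0 was −1.01 in R493A (95% interval −2.002 to −0.02, adjusted p = 0.250) and −1.24 in eds1-2 (interval −2.24 to −0.25, adjusted p = 0.143). Without the lane 6 libraries of Col-0 the values were 0.07 in R493A and −0.16 in eds1-2. Without Col-0 replicate 3 the difference in eds1-2 was called (−1.57, adjusted p = 0.0309). Against w.tEDS1 CML37 lay at −0.21 in R493A and −0.44 in eds1-2, with intervals that span 0. Col-0 replicate 2 was high and eds1-2 replicate 1 low for this gene, and the remaining 10 libraries lay between 16.7 and 32.9 CPM.

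CML38, which acts in RNA granules under low oxygen, measured 68.1, 42.1 and 55.3 CPM in R493A, 30.2, 48.6 and 102 in eds1-2, 57.2, 44.6 and 46.0 in w.tEDS1 and 69.3, 115 and 57.7 in Col-0. The 3 libraries of w.tEDS1 lay just below those of Col-0, and every other pair of groups overlapped. Its largest difference, w.tEDS1 over Col-0, was −0.71 (95% interval −1.56 to 0.14). CML42, which limits defence against herbivores and shapes leaf hairs, measured 42.9, 30.5 and 48.9 CPM in R493A, 15.7, 31.2 and 38.0 in eds1-2, 27.9, 21.4 and 33.1 in w.tEDS1 and 42.3, 43.3 and 30.6 in Col-0. Of the 7 tested members, CML42 and TCH2 had their highest mean in R493A. For CML42 the difference from w.tEDS1 was 0.57 (interval −0.08 to 1.22, adjusted p = 0.999) and that from eds1-2 was 0.53 (interval −0.13 to 1.18, adjusted p = 1).

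CML43, whose transcript is known to rise during the hypersensitive response to avirulent bacteria, was near the limit of detection. It had 2 counts over the R493A libraries, 0 over eds1-2, 9 over w.tEDS1 and 4 over Col-0. A count of 0 allows up to 3 counts, or 0.0433 CPM over the eds1-2 libraries, a limit that covers counting error only. No fold change is given.

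Read together, 1 of the 7 tested members was called lower in R493A than in w.tEDS1 (CML10), against 0.208% of all 18770 genes tested. The members were chosen with earlier results of these data known. This count and those below therefore place them among all genes and are not independent evidence. In eds1-2 against w.tEDS1 the 1 member called was again CML10, which the choice of members fixed, so nothing is read from this count (0.0746% of all genes were called lower). Against Col-0, CML10 and CML46 were called lower in R493A (2 of 7, against 1.51% of all genes) and in eds1-2 (2 of 7, against 1.44%). No member was called higher in these comparisons by edgeR, where 0.016% and 0% of genes were in R493A and eds1-2 against w.tEDS1, and 0.266% and 0.602% against Col-0. None was called between w.tEDS1 and Col-0, where 1.09% of genes were called and 0.506% were called higher. At an unadjusted p under 0.05 it was 1 of 7, against 22.7% of all genes, and DESeq2 called 0. None was called between R493A and eds1-2, where 0.0373% of genes were called and 0.0107% were called higher. At an unadjusted p under 0.05 it was 0 of 7, against 2.15% of all genes, and DESeq2 called 0. CML10, CML46 and TCH3 had groups that did not overlap, with the libraries of R493A or eds1-2 below, in all 4 comparisons of R493A and eds1-2 with w.tEDS1 and Col-0. In each of these comparisons alone 3 of 7 members lay wholly below. Over all genes tested that was 7.68% for R493A and 5.09% for eds1-2 against w.tEDS1, and 10.6% and 10.3% against Col-0. The share of genes below in all 4 comparisons at once was not counted. For w.tEDS1 against Col-0, 1 of 7 lay wholly below, CML38, as did 10.7% of all genes. The median log2 fold change of the 7 was −0.21 in R493A and −0.44 in eds1-2 against w.tEDS1, and −1.01 and −1.24 against Col-0, while over all genes tested the medians were 0.01, 0.01, 0.01 and −0.01. In w.tEDS1 against Col-0 the median of the 7 was −0.50, with 6 of 7 below 0. Over all genes that median was −0.01, with 50.9% below 0. Against w.tEDS1, 4 of 7 lay below 0 in R493A and 4 of 7 in eds1-2 (48.7% and 47.7% of all genes). Against Col-0 it was 5 of 7 in R493A and 7 of 7 in eds1-2 (48.7% and 51.2%). The medians against Col-0 without the lane 6 libraries were −0.06 in R493A, −0.19 in eds1-2 and −0.04 in w.tEDS1. The comparisons with Col-0 share its libraries, as those with w.tEDS1 share theirs, so the values of R493A and eds1-2 against one of them do not count as separate evidence.

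**Figure D2:**
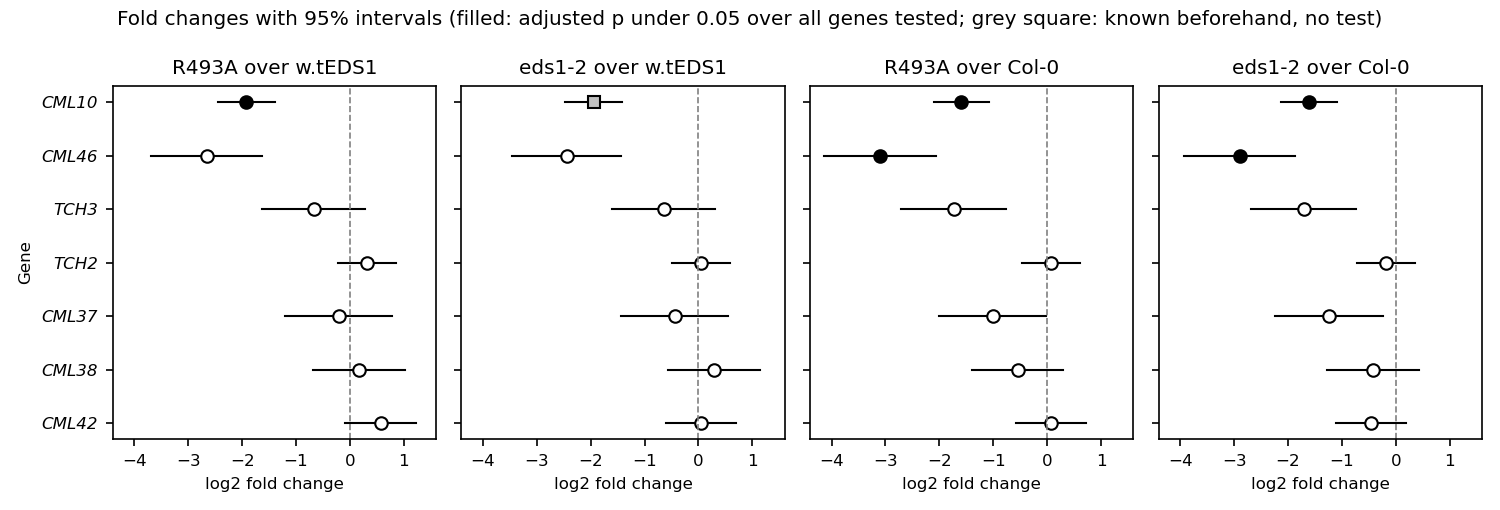
Log2 fold change with its 95% interval for the 7 tested genes, for R493A and eds1-2 over w.tEDS1 and over Col-0 (filled circles passed at an adjusted p under 0.05 over all genes, open circles did not, and the grey square has no test). CML10 and CML46 lie below 0 in all 4 panels, and the intervals of TCH2, CML38 and CML42 span 0 in each.

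Per kilobase of annotated exon, the scale on which genes can be compared, the mean level over the 12 libraries ranked TCH3 first at 131 CPM per kb, followed by CML10 at 90.2, CML38 at 61.7, CML42 at 34.5, CML46 at 28.2, TCH2 at 27.9, CML37 at 18.4 and CML43 at 0.0572. The order moved with genotype. In R493A, CML46 stood at 6.60 ± 1.86 CPM per kb, below CML37 at 14.7 ± 3.33, whereas in Col-0 CML46 stood at 56.9 ± 33.7 and CML37 at 29.6 ± 18.9. CML10 stood at 41.1 ± 2.72 CPM per kb in R493A and 124 ± 34.8 in Col-0.

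In Col-0, eds1-2 and R493A some libraries held most of the genes high or low together, and with them a list of 10 touch and rapid stress genes that includes TCH4, WRKY40 and STZ. In Col-0 replicate 2 all 7 tested members were at their highest of the group, as were 9 of the 10 listed genes. The same held in eds1-2 replicate 3, again with 7 of 7 and 9 of 10. Over all genes, 37.3% were at their highest in Col-0 replicate 2 and 36.4% in eds1-2 replicate 3. Col-0 replicate 3, the Col-0 library left without lane 6, had 5 of 7 members and 6 of 10 listed genes at their lowest. Median deviations there were −0.42 for the members and −0.49 for the list, and 37.6% of all genes were at their lowest. In eds1-2 replicate 1, of the smaller run, 6 of 7 members and 9 of 10 listed genes were at their lowest, with median deviations from the group mean of −0.61 for the members and −0.78 for the list on the log2 scale. In R493A replicate 2, of the same run, 5 of 7 and 8 of 10 were at their lowest, with medians of −0.26 and −0.33. Over all genes, 37.9% and 37.4% were at their lowest in these 2 libraries. The part of the sequencing run in this pattern was not tested. In w.tEDS1 the members did not share a direction. There CML10 deviated by −0.51 in replicate 1, where the median of the list was 0.38, and CML46 by 0.93 in replicate 2, where that median was −0.46. CML10 and CML46 followed it least in eds1-2. Their deviations in eds1-2 replicate 1 were −0.11 and −0.025, against −0.84 for CML37 and −0.81 for CML38. In the larger run alone, the difference between R493A and w.tEDS1 was −1.95 for CML10 and −2.58 for CML46, against −1.92 and −2.66 with all libraries.

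**Figure D3:**
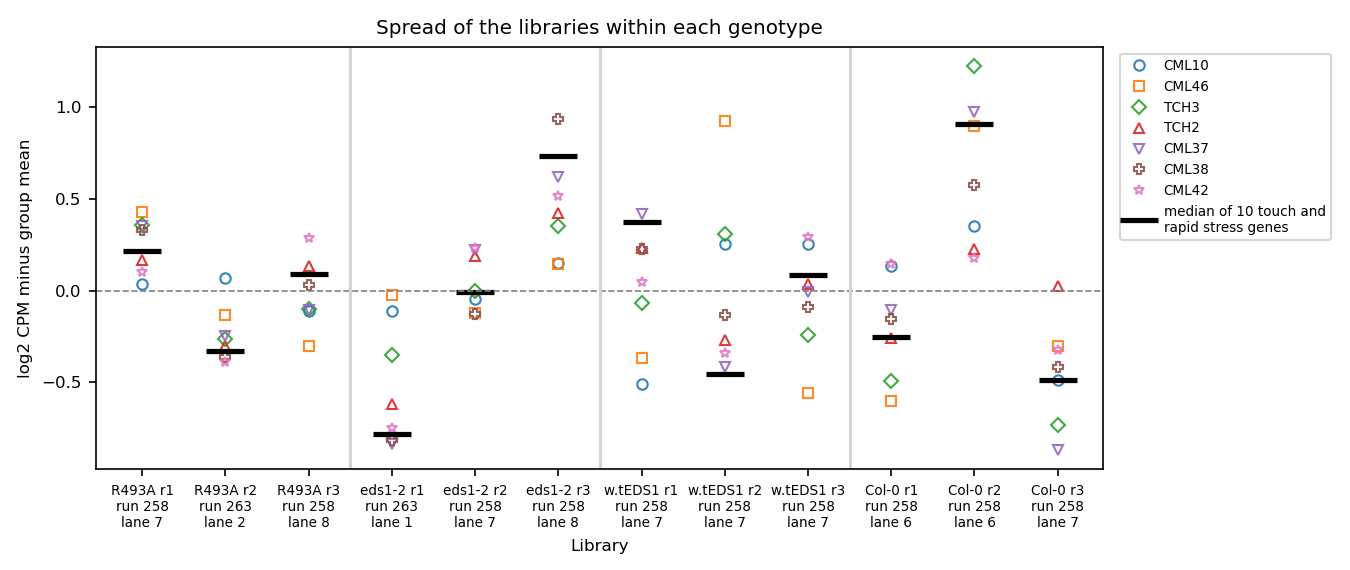
Log2 CPM of each tested gene minus its mean in the genotype (vertical axis), for the 12 libraries with their sequencing run and lane (horizontal axis); black bars give the median of the 10 touch and rapid stress genes. The genes and the bars are high together in eds1-2 replicate 3 and Col-0 replicate 2 and low together in eds1-2 replicate 1, where the bar lies at −0.78. In Col-0 replicate 3 the bar lies at −0.49, and all the genes but TCH2 lie below 0.

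In the rest of the calmodulin family, edgeR called genes only against Col-0. The 7 calmodulins proper, the calcium sensors that all the others resemble, lay between −0.02 and 0.27 on the log2 scale in R493A over w.tEDS1, with a median of 0.05, and between −0.05 and 0.16 in eds1-2 over w.tEDS1, with a median of 0.07. Against Col-0 their medians were −0.17 in R493A, −0.17 in eds1-2 and −0.25 in w.tEDS1, and none of the 7 was called in any comparison by edgeR. The calmodulin gene CAM2, which follows TCH3 on the chromosome, averaged 129 ± 22.9 CPM in R493A, 122 ± 25.6 in eds1-2, 116 ± 13.0 in w.tEDS1 and 160 ± 44.5 in Col-0. With all libraries in edgeR, CML10 passed the test among these 3 neighbours and TCH3 and CAM2 did not, while DESeq2 also called TCH3 against Col-0. Of 42 other calmodulin-like genes, 25 were tested. None was called against w.tEDS1, where their medians were −0.07 in R493A and −0.01 in eds1-2. Against Col-0, 2 of 25 were called lower in R493A (median −0.54) and 3 of 25 in eds1-2 (median −0.50), against 1.51% and 1.44% of all genes. For w.tEDS1 over Col-0 the median was −0.58 with 1 of 25 called lower, where 1.09% of all genes were called in either direction. In each of these comparisons 23 of 25 lay below 0, against 48.7% of all genes in R493A, 51.2% in eds1-2 and 50.9% in w.tEDS1. The medians of these other calmodulin-like genes against Col-0 were, without the lane 6 libraries, −0.19 in R493A, −0.21 in eds1-2 and −0.25 in w.tEDS1. Of the 28 then tested, 20, 21 and 22 lay below 0.

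CML41, which promotes callose at plasmodesmata during bacterial attack, was the family gene with the lowest adjusted p. It averaged 10.15 ± 0.691 CPM in R493A, 11.3 ± 3.26 in eds1-2, 23.8 ± 4.04 in w.tEDS1 and 68.4 ± 16.8 in Col-0. It was lower than in Col-0 in R493A (log2 fold change −2.75, adjusted p = 0.000198), in eds1-2 (−2.60, adjusted p = 0.000307) and in w.tEDS1 (−1.52, adjusted p = 0.0125). The EF-hand gene AT3G47480 averaged 13.7 ± 1.91 CPM in R493A, 13.9 ± 2.21 in eds1-2, 48.0 ± 21.0 in w.tEDS1 and 73.5 ± 31.6 in Col-0. It was lower than in Col-0 in R493A (−2.43, adjusted p = 0.00533) and in eds1-2 (−2.40, adjusted p = 0.00697). Both genes lie on chromosome 3 within 2 Mb of EDS1, at 18873911 to 18874836 and 17496085 to 17497164 (TAIR10.1), whereas the 8 members lie on other chromosomes. AT2G41410, an EF-hand gene on chromosome 2, was lower in eds1-2 (187 ± 57.9 CPM) than in Col-0 (371 ± 86.3 CPM, log2 fold change −0.99, adjusted p = 0.0487). Without the lane 6 libraries of Col-0, CML41 stayed called in R493A (−2.26, adjusted p = 0.00642) and eds1-2 (−2.10, adjusted p = 0.0102) but not in w.tEDS1 (−1.04, adjusted p = 0.274), and the calls of AT3G47480 and AT2G41410 were lost.

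**Figure D4:**
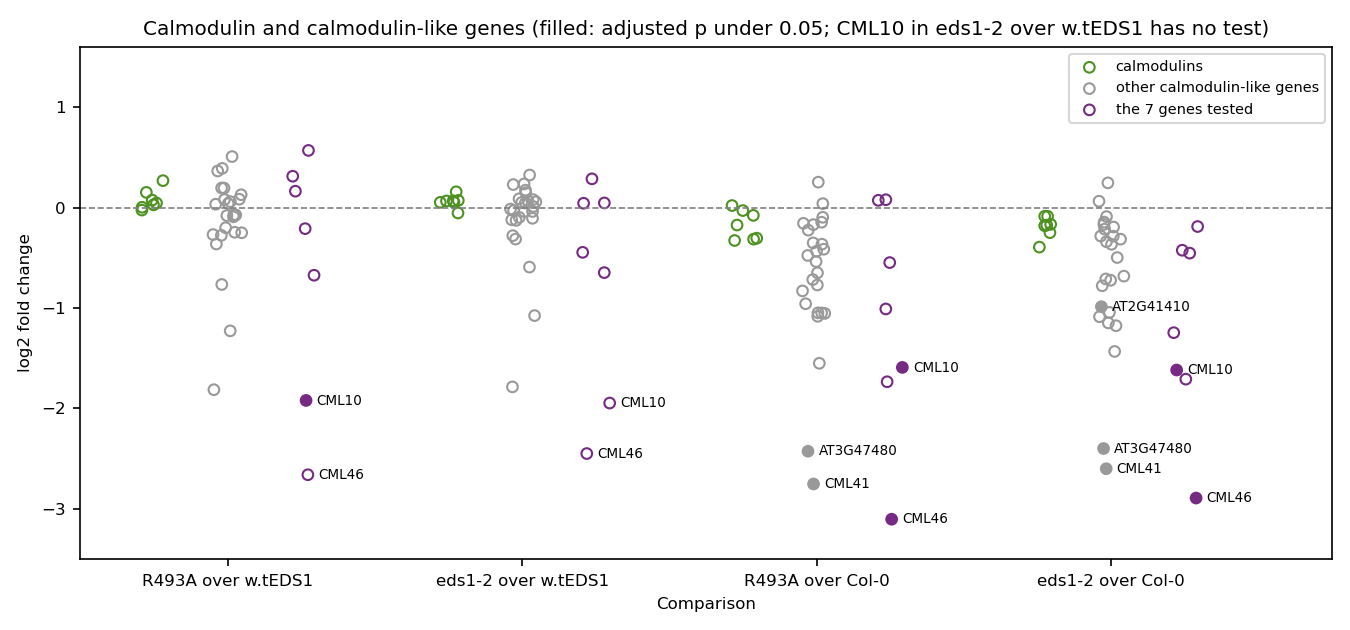
Log2 fold change (vertical axis) of the 7 calmodulins, the 25 tested other calmodulin-like genes and the 7 tested members in 4 comparisons (horizontal axis), each a point, filled where the adjusted p was under 0.05. The calmodulins stay between −0.39 and 0.27, and CML46 is the lowest point of each comparison, at −3.10 in R493A over Col-0.

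Calmodulin-binding regulators and calcium transporters were tested as a list of 15 genes that includes the CAMTA factors, CBP60A, CBP60G and the channel genes CNGC2 and CNGC4. None was called in any comparison by edgeR. Their median was −0.03 in R493A and −0.004 in eds1-2 against w.tEDS1, and −0.06 and −0.16 against Col-0. The last 2 were 0.27 and 0.31 without the lane 6 libraries. For w.tEDS1 over Col-0 the median was −0.09, and 0.305 without those libraries. CBP60G, an activator of salicylic acid synthesis, averaged 36.0 ± 6.02 CPM in R493A, 37.6 ± 13.1 in eds1-2, 70.5 ± 16.3 in w.tEDS1 and 157 ± 147 in Col-0. The touch and rapid stress list had no called gene either, with medians of 0.34 in R493A and 0.15 in eds1-2 against w.tEDS1, and −0.30 and −0.43 against Col-0. The medians against Col-0 without the lane 6 libraries stood at 0.27 in R493A and 0.30 in eds1-2. For w.tEDS1 over Col-0 the median of this list was −0.32 with all libraries and 0.23 without lane 6. TCH4, another classical touch gene, which encodes a cell-wall enzyme, averaged 252 CPM in R493A, 221 in eds1-2, 201 in w.tEDS1 and 201 in Col-0. No gene was called among the guard cell, phloem and dividing-cell markers in any of the 6 comparisons by edgeR. The summed level of the 6 guard cell markers was 97.8 to 121 CPM in R493A, 78.3 to 130 in eds1-2, 83.02 to 132 in w.tEDS1 and 60.9 to 121 in Col-0. That of 5 phloem markers was 549 to 617 CPM in R493A, 592 to 642 in eds1-2, 548 to 634 in w.tEDS1 and 536 to 566 in Col-0, and that of 4 markers of dividing cells was at most 2.53 CPM. Against Col-0 all 6 guard cell markers had values above 0 on the log2 scale in R493A and in eds1-2, with medians of 0.44 and 0.63, as had the 3 leaf genes. The same held in w.tEDS1 against Col-0, with medians of 0.40 for the guard cell markers and 0.46 for the leaf genes. Without the lane 6 libraries, 4 of 6 guard cell markers lay above 0 in R493A, 4 of 6 in eds1-2 and 2 of 6 in w.tEDS1. Of the 3 leaf genes, 2 then lay above 0 in R493A, 3 in eds1-2 and 3 in w.tEDS1. Their medians were 0.09, 0.19 and 0.27. The part of cell composition in the values against Col-0 was not tested.

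Genes with the profile most like each member were found among 13595 genes of at least 5 CPM, by the root mean square difference of centred log2 CPM over the 12 libraries, in which a smaller value means closer. Nearest to CML10, whose own root mean square was 0.91, were AT1G24147 (0.28), the TIR-NBS resistance gene AT3G04210 (0.31) and DMR6 (0.31), an oxygenase that hydroxylates salicylic acid. DMR6 averaged 41.2 ± 4.69 CPM in R493A, 38.4 ± 4.17 in eds1-2, 127 ± 24.9 in w.tEDS1 and 118 ± 63.8 in Col-0. Nearest to CML46, whose own value was 1.41, were AT5G60800 (0.41), SARD1 (0.42), a calmodulin-binding-like activator of salicylic acid synthesis, and AT3G47480 (0.42). TCH3 (own value 0.78) lay nearest to NUDT7 (0.12), a nudix hydrolase that restrains EDS1-dependent defence, to the calmodulin-binding gene EDA39 (0.15) and to the salicylic acid receptor gene NPR3 (0.21). NUDT7 measured 242, 665 and 213 CPM in Col-0, the same high replicate 2 as TCH3.

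For the other members, CML37 lay nearest to the EF-hand gene AT3G01830 (0.18), AT5G09800 (0.19) and NAC102 (0.19), and CML38 to AT4G24380, HSFB2A and the VQ-motif gene AT2G22880 (0.14 each). CML42 lay nearest to AT1G19970 (0.16), LEA14 (0.18) and AT2G38640 (0.18). TCH2 lay nearest to BETA-OHASE 2, AT2G27080 and AT3G05500 (0.08, 0.08 and 0.09), against an own value of 0.32. Among the members themselves, TCH2 and CML42 were the closest pair at 0.24, and CML46 was 1.16 to 1.496 from TCH2, CML37, CML38 and CML42. CML10 and CML46 differed from each other by 0.69, and CML10 differed from its neighbour TCH3 by 0.66.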

How the data were processed

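Poly(A) RNA was sequenced from 12 leaf samples. The deposited values are raw counts of reads by gene, with 1 column a library. Per the submitters' processing notes it was made on TAIR10, and TopHat2, HTSeq and limma are named without versions or roles. Its 5 summary entries, 9.69% to 22.9% of a column, were left out. Groups came from the labels, and replicates are separate pools of plants. In R 4.3.3, edgeR 4.0.16 kept 18770 genes by filterByExpr, scaled libraries by TMM and tested 6 pairs of genotypes in 1 quasi-likelihood fit of all 12 libraries. Log2 fold changes used a prior count of 0.125, are first over second group, and adjusted p-values (Benjamini-Hochberg over all tested genes) under 0.05 are calls. An SE is the size of the log2 fold change over the square root of F, and intervals are at 95%.

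Members, lists and tests were chosen with earlier results of these data known. Named genes are the members, EDS1, called genes of the lists (up to 3 with the lowest adjusted p) and, per member, the 3 most like it. Others (CAM2, CBP60G, TCH4, EMB2744, AT5G37760) are named for position or role. Alternatives were DESeq2 1.42.0, its size factors, limma-voom 3.58.1, no filter, replicate, run or lane terms, and subsets of libraries. The scripts were tested on simulated counts. Symbols, coordinates and sequences are from RefSeq TAIR10.1, which matched 31912 identifiers.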

Additional observations from a re-analysis of the deposited data

How the results depend on the processing

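The number of the 7 members called moved by more than 1.5 times in several settings. Against w.tEDS1 it was 1 for R493A and 1 for eds1-2, the second fixed by the choice of CML10 and given as a description. In R493A it was 2 with DESeq2, without a filter and without the Col-0 libraries of lane 6 (the last setting chosen after the data were seen), and in eds1-2 it was 2 with DESeq2 and without the lane 6 libraries. It was 0 for both in the larger run alone, with the lane in the model and in lane 7 alone, and 0 for eds1-2 with the run in the model. Against Col-0, where it was 2 for both, it was 0 for both in the larger run alone, with the lane, in lane 7 alone and without the lane 6 libraries, and 0 for eds1-2 in its 6 libraries alone. With 1 library left out it ranged from 0 to 2 for each genotype over w.tEDS1, from 0 to 4 for eds1-2 over Col-0, from 0 to 3 for R493A over Col-0 and from 0 to 1 for w.tEDS1 over Col-0. The fit with the replicate block called 0 members in eds1-2 over w.tEDS1 and changed no other count. The correlations of same-numbered libraries lay between −0.509 and 0.381, over 0.1 in 4 of 18 pairs. For R493A and w.tEDS1 all 3 were over 0.1 (0.105, 0.381 and 0.139), and there CML10 was −1.91 with the block (adjusted p = 0.0303) and stayed called. In the other comparisons the numbers did not pair the libraries. Lane 7 alone leaves 1 library each of R493A, eds1-2 and Col-0, so the lone libraries are assumed to vary like w.tEDS1. Without the lane 6 libraries, Col-0 keeps replicate 3 alone, which is assumed to vary like the other groups. With the lane in the model, Col-0 is also compared through that library alone. The cause of these moves was not tested beyond the fewer libraries in each such fit.

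Of 966 single-gene values under the alternatives, 855 kept direction and side of the threshold, 45 lost a call, 15 gained one and 51 changed sign, none of these last from a called value. Outside single left-out libraries, these values had the other sign. For R493A over w.tEDS1, CML37 stood at 0.060 with the run term and 0.109 in lane 7. For eds1-2 over w.tEDS1, limma-voom gave −0.001 for TCH2 and −0.036 for CML42, and lane 7 gave −0.033 for CML38. For eds1-2 over Col-0, TCH2 stood at 0.069 in the larger run, CML37 at 0.160, CML38 at 0.131 and CML42 at 0.053 with the lane term, CML42 at 0.017 in lane 7 and CML38 at 0.076 without lane 6. For R493A over Col-0, CML37 stood at 0.194 with the lane term, 0.381 in lane 7 and 0.072 without lane 6, and CML38 at 0.227 in lane 7. For w.tEDS1 over Col-0, CML37 stood at 0.271 with the lane term, 0.272 in lane 7 and 0.278 without lane 6, and CML46 at 0.013, 0.013 and 0.022. For R493A over eds1-2, CML10 stood at −0.066 in the larger run and −0.062 with the lane term, TCH3, CML38 and CML46 at 0.342, 0.488 and 0.313 in lane 7, and CML38 at 0.027 with limma-voom. With 1 library left out, the ranges that crossed 0 were −0.405 to 0.033 (CML37) and −0.012 to 0.319 (CML38) for R493A over w.tEDS1, and −0.167 to 0.297 (TCH2), −0.316 to 0.612 (CML38) and −0.218 to 0.336 (CML42) for eds1-2 over w.tEDS1. They were −0.402 to 0.067 (TCH2) for eds1-2 over Col-0, −0.029 to 0.213 (TCH2) and −0.077 to 0.245 (CML42) for R493A over Col-0, and −1.066 to 0.154 (CML46) for w.tEDS1 over Col-0. For R493A over eds1-2 they were −0.030 to 0.105 (CML10), −0.230 to 0.169 (TCH3), −0.086 to 0.571 (CML37) and −0.452 to 0.487 (CML38).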

Other observations

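Further EF-hand genes of the family had values but no call. AT1G76640, which lies next to CML38 on chromosome 1, had 3.23, 1.56 and 1.65 CPM in R493A, 2.24, 1.16 and 2.78 in eds1-2, 1.98, 2.05 and 0.889 in w.tEDS1 and 0.798, 8.22 and 4.72 in Col-0. AT3G01830, the gene nearest to CML37 in profile, had 54.4, 32.5 and 44.2 CPM in R493A, 17.1, 39.3 and 64.2 in eds1-2, 54.2, 30.4 and 39.2 in w.tEDS1 and 70.8, 164 and 37.6 in Col-0. In both genes Col-0 replicate 2 was the highest of the 12 libraries. Of the 42 other calmodulin-like genes, 9 had no count in the R493A libraries, 9 none in eds1-2, 9 none in w.tEDS1 and 8 none in Col-0.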
